A study of Mus musculus with 6 samples.

Results

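The CXC chemokine genes encode small secreted proteins that guide leukocytes through G protein-coupled receptors. The set described here holds 10 of the 55335 genes in the count table: Cxcl1, Cxcl2, Cxcl3, Cxcl5, Cxcl9, Cxcl10, Cxcl11, Cxcl14, Cxcl16 and Pf4. They were found by matching Ensembl identifiers, without their version, to GENCODE M21 gene names. All 10 were among the 15687 genes with enough counts to be tested.

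Total RNA was sequenced from bone marrow-derived macrophages (BMDMs) of C57BL/6 mice, grown for 6 d with 20% L929-conditioned medium, a source of macrophage colony-stimulating factor. The study used male mice aged 7 to 10 weeks. PBS was given to the cells of 3 libraries and LPS, a bacterial cell wall component sensed by TLR4, to those of the other 3. All were taken after 1 h, and the titles number the libraries of each group as replicates 1, 2 and 3. These numbers were taken as batches 1, 2 and 3. The cells carried no other treatment or allele, and the dose of LPS for these RNA-seq libraries is not given in the sources used here. Nothing in the labels says whether the libraries of a group came from separate mice or cultures, so p-values measure only the spread between these libraries.

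CXC chemokines fall into functional groups. Those with an ELR motif before the first cysteines, such as CXCL1, CXCL2, CXCL3 and CXCL5, attract neutrophils through CXCR2. CXCL9, CXCL10 and CXCL11 lack that motif, are known as interferon-inducible chemokines and act on CXCR3 of activated T cells and NK cells. CXCL16 is made as a transmembrane protein that binds CXCR6 or is shed, PF4 is best known as a platelet granule protein, and CXCL14 is mostly known from epithelia and other tissues.

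The 6 libraries held between 37787611 and 41516330 counts. The 10 genes together took 0.0250% to 0.0260% of these counts in the PBS libraries and 0.565% to 0.594% in the LPS libraries. A level of 3 counts, used here as the floor of detection, corresponded to 0.0630 to 0.0919 CPM (counts scaled to library size by the TMM factors). TMM factors were 1.15 in each PBS library and 0.864 to 0.872 in the LPS libraries. The median log2 fold change of all tested genes was -0.01 with TMM and -0.42 when libraries were scaled by their totals alone, and changes are given relative to the TMM scale. In such bulk RNA, fewer transcripts per cell and fewer cells that make them cannot be told apart. A list of 8 macrophage markers summed to between 29929 and 31211 CPM in the PBS libraries and between 35866 and 36224 CPM in the LPS libraries. Without Cd14, which is itself higher after LPS, the other 7 summed to between 29531 and 30806 CPM and between 32270 and 32620 CPM. Lyz2 made up most of this sum, with means of 23259 CPM with PBS and 24210 CPM with LPS. The log2 fold changes of these 7 ran from -0.48 for Fcgr1 to 0.35 for Csf1r. With library totals alone all 7 were negative, from -0.88 for Fcgr1 to -0.05 for Csf1r, so the rise of the sum depends on the scaling.

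After 1 h of LPS, 8 of the 10 CXC chemokine genes were higher and none was lower. A gene was called when its adjusted p in edgeR's quasi-likelihood test was under 0.05 and its log2 fold change exceeded 1 in size. Among all tested genes, 10.5% were higher and 10.4% were lower by the same criteria. The rises ran from 2.01-fold for Pf4 to 2393-fold for Cxcl1, and Cxcl5 and Cxcl14 did not pass. DESeq2 and limma voom also found 8 higher and none lower, and no log2 fold change of the 10 was negative in edgeR. Every LPS library lay above every PBS library for 9 of the 10 genes, against 33.9% of all tested genes. With library totals alone it was 8 of the 10, and the share over all genes was not computed on that scale. Cxcl3 and Cxcl11 passed the filter on low counts only through their LPS libraries, so their call was in part set by the filter, and 6 of the other 8 genes were higher. The median log2 fold change of the 10 genes was 3.33.

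**Figure D1:**
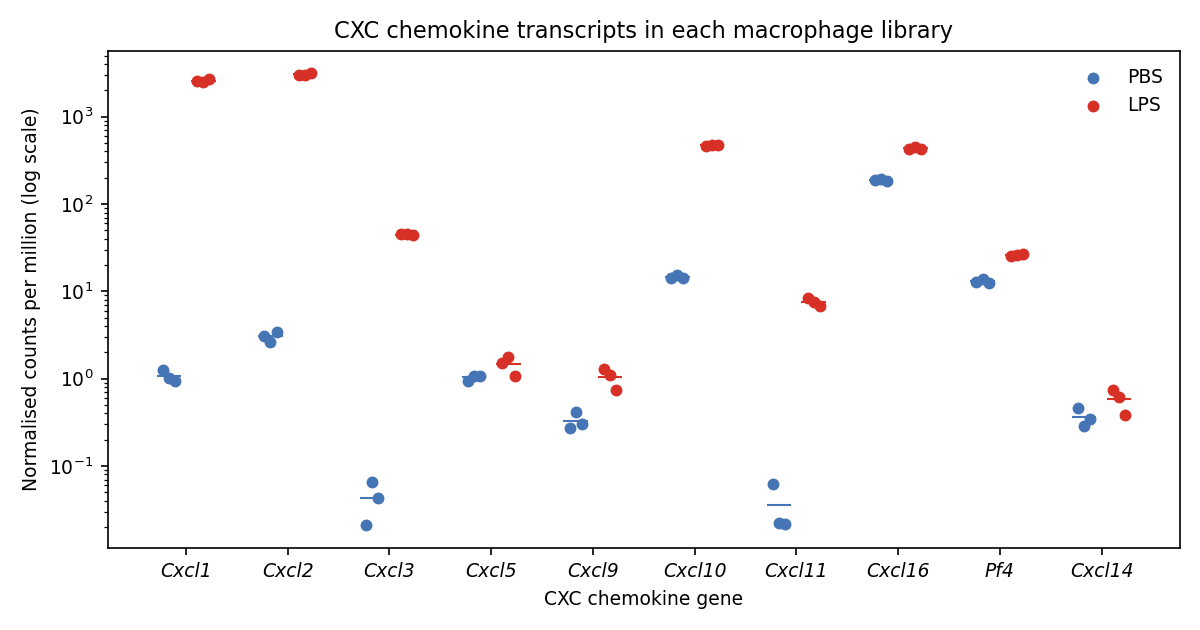
Level of each CXC chemokine gene in each library, in normalised CPM on a log axis; points are libraries and short lines are the means of 3 libraries. The PBS and LPS points are separate for 9 genes and overlap for Cxcl14.

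The sequences before the starts of these genes are shown first for the neutrophil-attracting genes with the steepest rise, Cxcl1, Cxcl2 and Cxcl3, because they share a run of letters. The sequences come from RefSeq on GRCm38.p6, read 5′ to 3′ on the gene's strand, and end before the first annotated base of the gene. They cover chr5:90890995-90891240, chr5:90903649-90903870 and chr5:90785851-90786100, all on the plus strand. Capitals mark matches to the NF-kB consensus, the binding motif of the Rel proteins that TLR4 signalling releases.
Cxcl1: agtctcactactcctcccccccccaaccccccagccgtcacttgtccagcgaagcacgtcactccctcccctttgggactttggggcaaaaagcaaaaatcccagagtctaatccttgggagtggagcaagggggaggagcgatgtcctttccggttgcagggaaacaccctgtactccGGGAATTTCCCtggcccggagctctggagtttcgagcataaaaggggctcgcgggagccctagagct
Cxcl2: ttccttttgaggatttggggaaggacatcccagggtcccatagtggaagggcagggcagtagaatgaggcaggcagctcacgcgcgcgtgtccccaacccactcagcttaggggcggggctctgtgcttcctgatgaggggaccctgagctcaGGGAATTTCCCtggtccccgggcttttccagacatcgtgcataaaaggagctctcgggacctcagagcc
Cxcl3: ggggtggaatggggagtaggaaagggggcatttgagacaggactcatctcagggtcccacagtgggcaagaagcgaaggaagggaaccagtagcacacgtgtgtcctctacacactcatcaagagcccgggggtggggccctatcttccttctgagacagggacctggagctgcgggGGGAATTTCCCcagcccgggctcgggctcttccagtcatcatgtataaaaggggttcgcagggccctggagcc

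Each of the 3 held the run GGGAATTTCCC, in which 2 overlapping matches on opposite strands lie. The first match, GGGAATTTCC, began at position -71 of Cxcl1, -97 of Cxcl2 and -73 of Cxcl3, counted from the RefSeq start. For Cxcl1 and Cxcl2 the last 4 and 28 bases before that start are not printed, since the annotation places them inside the gene. Their positions therefore do not count from the printed ends. That exact word or its reverse complement stood in the 250 bases before the start in 28 of 32851 RefSeq promoters (0.0852%). The word was read from these same 3 promoters, which are counted among the 28, so this share is not an independent background. The wider NF-kB consensus, with its variable letters, stood in 7.25% of them and in 4 of the 7 CXC chemokine promoters that the table holds. Cxcl3 alone of these 3 also held the exact TATA box word TATAAA, at -30, while the printed Cxcl1 and Cxcl2 sequences have cataaa near their ends. TATAAA was found in 12.4% of all promoters and in 2 of the 7, in Cxcl9 at -195.

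A second pair of promoters, chosen with the fold changes known, is printed for contrast. No promoter sequence of Cxcl5, Cxcl11 or Cxcl16 was at hand, and whether motifs are related to change was not tested. Cxcl10 is the interferon-inducible gene with the highest level, and Pf4 lies between Cxcl5 and Cxcl3 in the same gene cluster but rose least among the genes called. They cover chr5:92348890-92349139 on the minus strand and chr5:90772185-90772434 on the plus strand. Capitals mark the NF-kB consensus and the core of the interferon-stimulated response element, GAAANNGAA.
Cxcl10: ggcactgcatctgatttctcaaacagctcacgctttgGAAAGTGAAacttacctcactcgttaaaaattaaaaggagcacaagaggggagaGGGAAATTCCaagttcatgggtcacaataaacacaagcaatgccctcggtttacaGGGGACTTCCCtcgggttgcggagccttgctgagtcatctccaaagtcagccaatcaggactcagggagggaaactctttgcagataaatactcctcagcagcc
Pf4: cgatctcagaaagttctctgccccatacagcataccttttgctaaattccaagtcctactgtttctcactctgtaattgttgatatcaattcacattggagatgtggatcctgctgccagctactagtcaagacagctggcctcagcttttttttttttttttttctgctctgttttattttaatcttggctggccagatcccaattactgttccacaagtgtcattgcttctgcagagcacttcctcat

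The Cxcl10 sequence held GAAAGTGAA at position -213, GGGAAATTCC at -159 and the overlapping matches GGGGACTTCC and GGGACTTCCC from -104. It also held the AP-1 word TGANTCA at -74, which was found in 6.75% of all promoters and in 1 of the 7. The GAAANNGAA core stood in 7.13% of promoters and in 3 of the 7, those of Cxcl9, Cxcl10 and Cxcl14. The Pf4 sequence held neither, but had the C/EBP word TTGCNNAA, found in 9.56% of promoters and in 1 of the 7. Motifs were read on both strands. A match is a string of letters and not a measured binding site.

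Cxcl1 and Cxcl2 moved from low levels to the highest of the family. Cxcl1 (ENSMUSG00000029380.11, chr5:90891241-90893115) had 60, 46 and 44 counts in the PBS libraries and 86485, 81564 and 91756 counts in the LPS libraries. The mean level was 1.08 ± 0.161 CPM with PBS and 2589 ± 99.2 CPM with LPS (SD over 3 libraries, here and below). The log2 fold change was 11.22 with a standard error of 0.07 (adjusted p = 7.84e-25, edgeR).

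Cxcl2 (ENSMUSG00000058427.10, chr5:90903871-90905938) had 146, 119 and 160 counts with PBS and 101381, 98834 and 106859 with LPS. The groups were far apart, at 3.05 ± 0.417 CPM and 3061 ± 66.6 CPM. The log2 fold change was 9.97 with a standard error of 0.07 (adjusted p = 1.82e-24, edgeR). The PBS libraries held clear counts of both genes, so neither rise began from the floor.

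Cxcl3 (ENSMUSG00000029379.10, chr5:90786103-90789600) was at the floor in the PBS libraries, with 1, 3 and 2 counts, and had 1512, 1466 and 1498 counts in the LPS libraries. The LPS libraries were alike, at 44.6 ± 0.564 CPM. The ratio of the summed levels was 1034, with an exact 95% counting interval of 475 to 2819 that covers counting error only (adjusted p = 5.87e-21, edgeR). Cxcl2 and Cxcl3 share 67 stretches of one read length in their annotated transcripts, of 2261 and 3673. Cxcl2 had far more counts than Cxcl3 in the LPS libraries, so reads of these stretches could weigh on the Cxcl3 count, and their part in it was not tested.

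Cxcl5, the remaining ELR gene, did not pass the fold criterion. Its counts were 45, 49 and 50 with PBS and 51, 58 and 37 with LPS, which is 0.945, 1.08 and 1.08 CPM against 1.52, 1.78 and 1.09 CPM. The third LPS library barely exceeded the highest PBS library. The log2 fold change was 0.49 with a 95% interval of 0.07 to 0.91 (adjusted p = 0.0387, edgeR), below the fold criterion. Within batches 1, 2 and 3 the log2 ratios were 0.63, 0.66 and 0.0043, on CPM with 0.1 added. When libraries were scaled by totals alone the value was 0.09 with an adjusted p of 0.696, and DESeq2 gave an adjusted p of 0.0920.

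**Figure D2:**
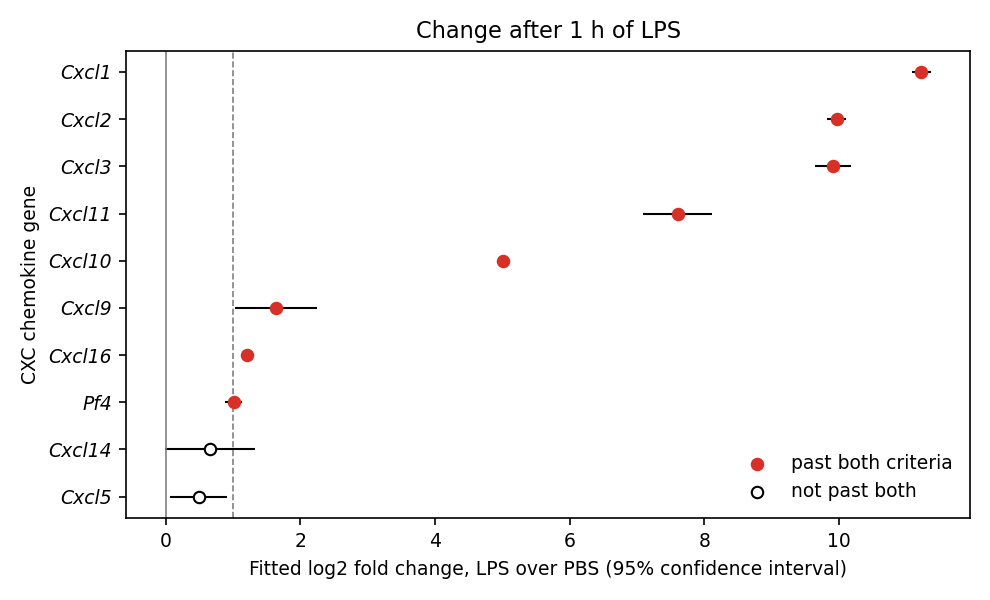
Fitted log2 fold change of each gene with its 95% confidence interval; the dashed line is the fold criterion. Cxcl1, Cxcl2 and Cxcl3 lie near 10 or above, and Cxcl5 and Cxcl14 are the open points below 1.

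The interferon-inducible genes spanned a wide range of change. Cxcl10 (ENSMUSG00000034855.13, chr5:92346638-92348889) had 677, 687 and 653 counts with PBS and 15448, 15496 and 16149 counts with LPS. It rose 32.3-fold, from 14.5 ± 0.590 CPM to 469.6 ± 8.26 CPM, with a log2 fold change of 5.02 and a standard error of 0.04 (adjusted p = 1.36e-23, edgeR). Cxcl9 and Cxcl11, by contrast, had 19 counts or fewer in each PBS library.

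Cxcl11 (ENSMUSG00000060183.6, chr5:92359544-92365485) is annotated as a polymorphic pseudogene, since the C57BL/6 strain carries a frameshift in it and is known to make no functional CXCL11 protein. Its transcript was nonetheless counted 279, 248 and 234 times in the LPS libraries, against 3, 1 and 1 in the PBS libraries. The ratio of summed levels was 211, with an exact 95% counting interval of 90.0 to 652 (adjusted p = 4.79e-15, edgeR). Of its annotated exon bases, 41.7% also belong to Gm2673, a processed pseudogene on the opposite strand, which itself had 0, 0 and 0 counts with PBS and 0, 0 and 2 with LPS. The strand setting of the counting is not given in the sources used here, so reads of the shared bases cannot be told apart.

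Cxcl9 (ENSMUSG00000029417.9, chr5:92321347-92328079) stayed low. It had 13, 19 and 14 counts with PBS and 43, 36 and 25 counts with LPS, so that each LPS library exceeded each PBS library. The fold change was 3.11 with a 95% interval of 2.05 to 4.73 (adjusted p = 6.62e-05, edgeR). In the LPS libraries its level was 1.04 ± 0.279 CPM.

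The balance between Cxcl9 and Cxcl10 was also compared within each library. The log2 ratio of their counts within a library was -5.43 ± 0.261 with PBS and -8.84 ± 0.427 with LPS (SD, n = 3). The 2 groups of ratios did not overlap, and the difference was -3.41 on the log2 scale. The two-sided exact permutation test gave p = 0.1, the smallest that 3 against 3 libraries allow, and 0.15 after adjustment over the 3 ratios compared.

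Among the neutrophil attractants, the same ratio of Cxcl1 to Cxcl2 was -1.496 ± 0.310 with PBS and -0.24 ± 0.0307 with LPS. All LPS ratios lay above all PBS ratios, with a difference of 1.25 (exact permutation p = 0.1, adjusted 0.15). For Cxcl3 to Cxcl2 the values were -5.90 ± 0.763 and -6.10 ± 0.0495, and the groups overlapped (exact permutation p = 0.7). The PBS ratios of Cxcl3 rest on counts at the floor, and the stretches that Cxcl2 and Cxcl3 share bear on this ratio too.

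Cxcl16, Pf4 and Cxcl14 differed in both level and change. Cxcl16 (ENSMUSG00000018920.11, chr11:70453983-70459984) was the most abundant member before stimulation, with 8958, 8647 and 8528 counts in the PBS libraries and 14296, 14784 and 14484 in the LPS libraries. It rose from 188.0 ± 3.28 CPM to 434.6 ± 15.7 CPM, a log2 fold change of 1.21 with a standard error of 0.03 (adjusted p = 1.09e-15, edgeR). Scaled by library totals alone, its change was 0.80, below the fold criterion. Of its exon bases, 18.3% are shared with Zmynd15 on the opposite strand, which had a log2 fold change of 0.82 (adjusted p = 6.24e-09, edgeR).

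Pf4 (ENSMUSG00000029373.7, chr5:90772435-90773383) had 614, 624 and 572 counts with PBS and 860, 856 and 908 with LPS, at 13.03 ± 0.717 CPM and 26.2 ± 0.528 CPM. The groups did not overlap. Its log2 fold change of 1.01 with a 95% interval of 0.89 to 1.13 (adjusted p = 2.81e-11, edgeR) lay on the fold criterion, and 8 of 15 alternative settings placed it below 1, among them leaving out PBS 1, PBS 3 or LPS 3. Markers of megakaryocytes and platelets summed to 8.56 to 8.80 CPM in the PBS libraries and 7.22 to 9.52 CPM in the LPS libraries, and none of the 4 tested passed the criteria. Among these 4, Itga2b had a log2 fold change of 0.31 (adjusted p = 0.0367, edgeR) and Ppbp 0.01. Treml1 had -0.37 and Gp9 -0.82. Itga2b had 112 to 150 counts in a library, and the defining marker Gp1bb had at most 1. The part of platelet-lineage cells in the Pf4 change was not tested.

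Cxcl14 (ENSMUSG00000021508.11, chr13:56288643-56296551) was near the lower limit of the tested genes, with 22, 13 and 16 counts with PBS and 25, 20 and 13 with LPS. The groups overlapped. The log2 fold change of 0.65 had a 95% interval of -0.02 to 1.32 (adjusted p = 0.0778, edgeR), which spans 0.989- to 2.50-fold, so no change was detectable at this depth. Without the third LPS library it was 0.88 with an adjusted p of 0.0281, still under the fold criterion.

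Because a long transcript gives more reads than a short one, levels of different genes were compared per kilobase of annotated exon (RPKM on the TMM scale), as a description without a test. The summed level of the 10 genes was 87.7 to 91.9 RPKM in the PBS libraries and 3209 to 3358 RPKM in the LPS libraries. Before stimulation the family was mainly Cxcl16 (62.2 ± 1.09 RPKM) and Pf4 (18.1 ± 0.995 RPKM), with mean shares of 69.4% and 20.1%. Cxcl10 came next at 6.45 ± 0.262 RPKM, then Cxcl2 at 1.48 ± 0.202 RPKM. Cxcl1 and Cxcl5 were next, at 0.574 ± 0.0861 and 0.557 ± 0.0431 RPKM, and did not differ beyond their spread. Cxcl14, Cxcl9, Cxcl3 and Cxcl11 followed with means of 0.200 RPKM or less, and the last 2 overlapped.

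After LPS, Cxcl2 (1480 ± 32.2 RPKM) and Cxcl1 (1381 ± 52.9 RPKM) made up 45.3% and 42.3% of the summed level. Cxcl10 held 6.39%, Cxcl16 4.41% and Pf4 1.11%, although the levels of these 3 had all risen. Cxcl3 reached 12.8 ± 0.161 RPKM and Cxcl11 2.00 ± 0.189 RPKM. Cxcl5 at 0.784 ± 0.187 RPKM was lower than these, and Cxcl9 at 0.345 ± 0.0924 and Cxcl14 at 0.317 ± 0.1005 RPKM were lowest and overlapped. Levels and some of this order depend on the length used. With the longest coding transcript of each gene as its length, Cxcl1 held 54.7% and Cxcl2 33.2%. Cxcl3 with LPS was then at 43.3 to 44.3 per kilobase and overlapped with Pf4 at 43.6 to 45.3. With PBS, Cxcl1 was then at 1.0001 to 1.32 and no longer overlapped with Cxcl5 at 0.600 to 0.688.

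**Figure D3:**
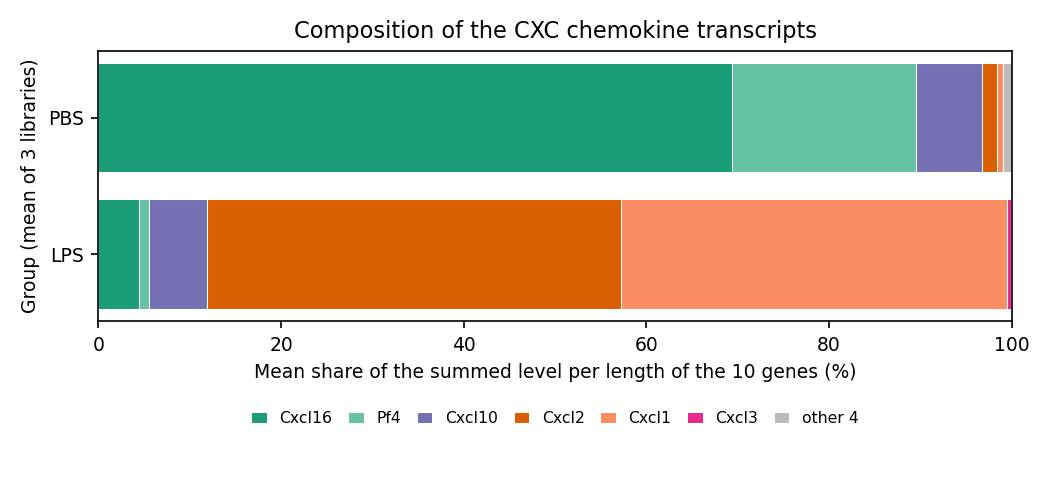
Mean share of each gene in the summed level per length of the 10 genes, as stacked bars from 0 to 100% for the PBS and LPS groups. Cxcl16 and Pf4 fill most of the PBS bar, and Cxcl2 and Cxcl1 fill most of the LPS bar.

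On chromosome 5, 8 of the 10 genes form 2 clusters. Cxcl5, Pf4, Cxcl3, Cxcl1 and Cxcl2 lie in this order on the plus strand, with 144511 bp between the first and last start. In this order their log2 fold changes were 0.49, 1.01, 9.91, 11.22 and 9.97. Pf4 starts 13075 bp and Cxcl3 26743 bp after the Cxcl5 start. Whether change is related to position was not tested. Cxcl9, Cxcl10 and Cxcl11 lie together on the minus strand. Of 96 other genes that start within 250 kb of a CXC chemokine gene start, 38 were tested. Of these, 4 were higher and 3 were lower, against 10.5% and 10.4% of all tested genes. All 4 higher genes passed the filter only through their LPS libraries and 2 of the lower ones only through their PBS libraries, so these calls were in part set by the filter. Of the 30 neighbours that passed in both groups, none was higher and 1, Tifab, was lower.

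Near the first cluster 5 other genes were tested and 3, each at or near 0 with PBS, were called higher. Areg, which encodes the EGF receptor ligand amphiregulin, had no count in any PBS library, while the LPS libraries held 4724, 4935 and 4686. Against the floor of 3 counts per library the LPS level was at least 2210-fold higher. Ereg, which encodes epiregulin, another EGF receptor ligand, had 2, 4 and 1 counts with PBS and 62, 39 and 47 with LPS (log2 fold change 4.79).

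Gm22816, annotated as an rRNA gene, starts 2139 bp after the Cxcl1 start on the same strand, past the annotated end of Cxcl1. It had no count with PBS, and with LPS 14, 12 and 28 counts, which was at least 8.27-fold higher against the same floor. Ppbp, a CXC ligand of platelets that lies between Cxcl5 and Pf4, had 135, 112 and 135 counts with PBS and 115, 90 and 72 with LPS. Its log2 fold change was 0.01 with a standard error of 0.15 (adjusted p = 0.965, edgeR), and the groups overlapped on the CPM scale.

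Near the second cluster 9 genes were tested, and U90926 was the one called, with 3, 0 and 0 counts with PBS and 87, 61 and 72 with LPS, so that it too entered the test only through its LPS libraries. Around Cxcl14, 3 genes were tested and Tifab, which encodes an inhibitor of the signalling adaptor TIFA, was lower by a log2 fold change of -1.13 (adjusted p = 3.10e-14, edgeR). Around Cxcl16, 21 were tested and 2 were lower, 0610010K14Rik at -1.36 and Rnasek at -1.05 on the log2 scale. Both of these had 30 counts or fewer in every library.

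**Figure D4:**
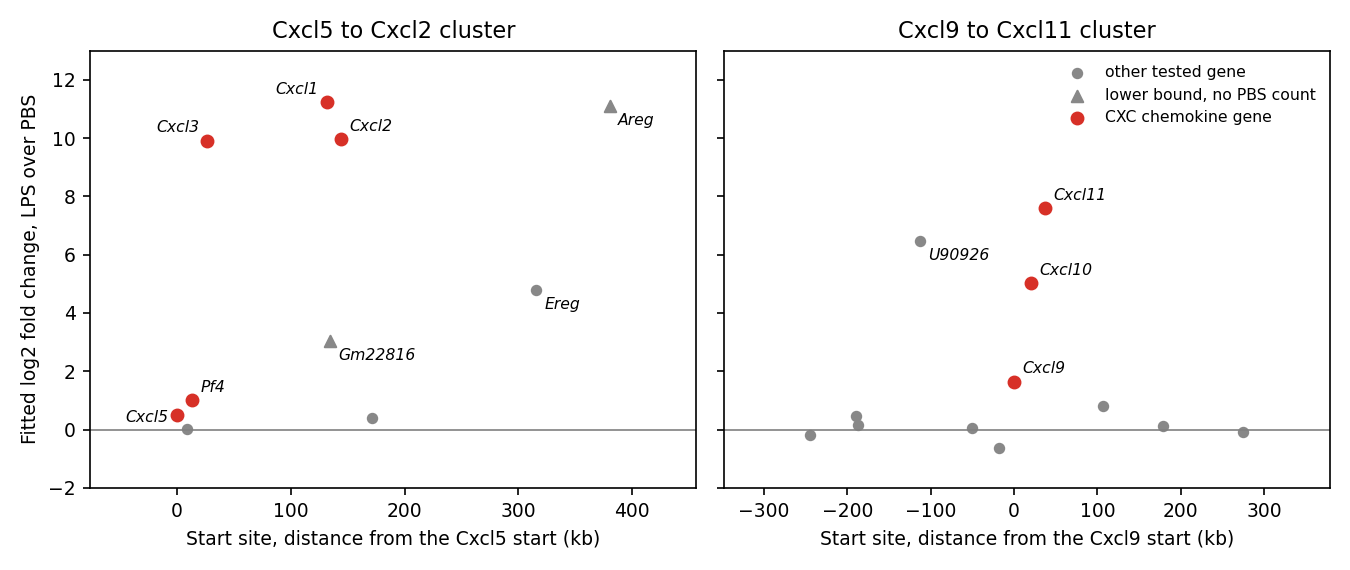
Fitted log2 fold change of tested genes in the 2 chromosome 5 clusters against the distance of their start from the Cxcl5 start or the Cxcl9 start, in kb. Triangles are log2 lower bounds for Areg and Gm22816, which had no PBS counts; most other grey points lie near 0.

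Other genes of the CXC system were read from lists. Of 5 other CXC ligands, Ppbp and Cxcl12 were tested and neither passed in edgeR, DESeq2 or limma voom, nor had an unadjusted p under 0.05. Cxcl12, which retains cells in bone marrow niches, had 26, 17 and 10 counts with PBS and 17, 9 and 13 with LPS. Cxcl13, Cxcl15 and Cxcl17 were listed at 0 in every library, which allows up to 0.0919 CPM in a library.

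Of 8 receptors 4 were tested and none passed both criteria in edgeR, DESeq2 or limma voom, and 1, Cxcr4, had an unadjusted p under 0.05. Cxcr4, the receptor of CXCL12, had 8329, 8044 and 8209 counts with PBS and 7224, 6704 and 7189 with LPS. Its log2 fold change was 0.25 (adjusted p = 1.90e-06, edgeR) and turned to -0.15 when libraries were scaled by totals alone, so its direction was set by the scaling. Receptors of the genes described here, named after their values were seen, were low: Cxcr2 had 20 to 30 counts with PBS and 10 to 24 with LPS, and Cxcr6 had 3 to 18 and 7 to 12. Cxcr3 had 171 to 192 counts with PBS and 99 to 146 with LPS, a log2 fold change of -0.0025 (adjusted p = 0.988, edgeR).

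None of 6 proteases that shed or trim CXC ligands passed both criteria in edgeR, DESeq2 or limma voom, although all 6 had an adjusted p under 0.05 in edgeR. The log2 fold changes were 0.65 for Dpp4, 0.49 for Adam17, 0.26 for Adam10, which sheds CXCL16, -0.13 for Mmp9, -0.16 for Mmp8 and -0.26 for Mmp12. The Adam10 value was -0.14 with library totals alone. Among 5 regulators of chemokine mRNA decay, 3 were higher, against 10.5% of all tested genes. Zfp36, which encodes the AU-rich element binding protein tristetraprolin, had a log2 fold change of 4.26, the nuclease gene Zc3h12a 3.59 and Zfp36l1 1.70.

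All 8 genes of the NF-kB list were higher, against 10.5% of all tested genes. The largest changes were those of Nfkbiz, a nuclear co-factor (5.57), the inhibitor gene Nfkbia (4.79) and the subunit gene Rel (4.13). Nfkb1 (2.67), Nfkb2 (2.50), Relb (2.40) and Bcl3 (2.21) followed. Rela was the smallest at 1.06, and it was 0.66 when libraries were scaled by totals alone.

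Of 12 genes of the interferon axis 11 were tested, with 2 higher, 1 lower and 8 neither. Among all tested genes, 10.5% were higher and 10.4% were lower. Ifnb1, which encodes interferon beta, went from 6, 2 and 1 counts to 1318, 1297 and 1447 counts (log2 fold change 9.22, standard error 0.15, adjusted p = 1.31e-19, edgeR), and passed the filter only through its LPS libraries. Irf1, a transcription factor gene, was higher by 2.12 and Stat2, part of the interferon-activated complex ISGF3, had -1.56. Ifng, the gene of interferon gamma, had 0 counts in 5 libraries and 2 in an LPS library.

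**Figure D5:**
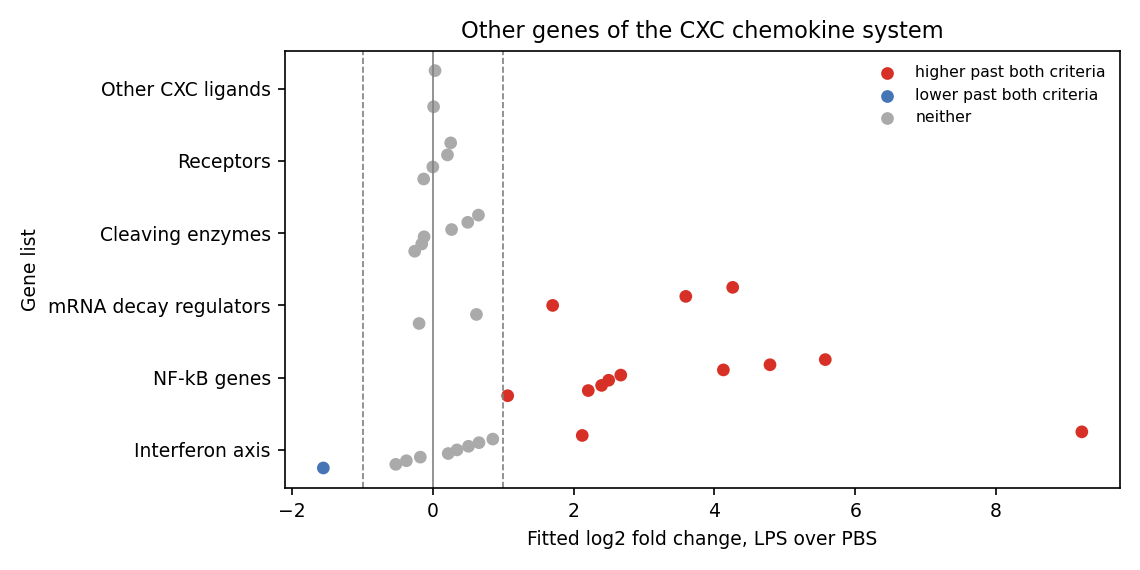
Fitted log2 fold change of each tested gene in 6 lists, 1 point per gene; dashed lines are the fold criteria. All 8 NF-kB genes lie above 1, and no receptor, protease or other CXC ligand does.

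Markers of other cells moved with treatment in some lists. Dendritic cell markers were higher for 4 of 5 tested, against 10.5% of all tested genes. The list summed to 4.07 to 5.004 CPM with PBS and 11.1 to 11.7 CPM with LPS. Those called were Flt3 (1.63), Zbtb46 (2.50), Xcr1 (3.92) and Siglech (1.07, or 0.67 with library totals alone). Xcr1, with 1 to 2 counts in the PBS libraries, passed the filter only through its LPS libraries. Its call was thus in part set by the filter. Neutrophil markers summed to 26.8 to 27.7 and 33.9 to 35.9 CPM with none of the 7 tested passing, although 3 had an adjusted p under 0.05 in edgeR. These were Ngp (0.61), S100a8 (0.40) and Ltf (0.24), which had 0.20, -0.0029 and -0.17 with library totals alone. S100a8 had 479 to 575 counts in a library, and the untested Ly6g had 3 or fewer in every library. Fibroblast markers summed to 13.7 to 14.8 and 15.3 to 17.7 CPM with none of 5 passing. The 1 tested lymphocyte marker did not pass, and that list summed to 0.774 to 1.10 and 1.13 to 1.40 CPM. DESeq2 and limma voom also called none in the neutrophil, fibroblast, lymphocyte and megakaryocyte lists, in which 4, 1, 1 and 1 genes had an unadjusted p under 0.05 in edgeR. Of 8 macrophage markers 1 was higher, Cd14, the co-receptor for LPS (3.19). The part of such cells in the CXC chemokine levels was not tested.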

How the data were processed

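The RNA-seq libraries, 3 with PBS and 3 with LPS, were grouped by their labels. Per the labels and methods, the authors aligned paired-end reads from a stranded total RNA kit to GRCm38 with HISAT2 2.1.0, used FastQC 0.11.9 and SAMtools 1.17, and counted reads per gene with featureCounts 2.0.0. The deposited values are raw counts. The annotation release and strand setting are not given in the sources used here. Of 55335 identifiers, 55154 matched GENCODE M21 without version.

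Counts were tested with edgeR 4.0.16 in R 4.3.3 (filterByExpr, TMM, quasi-likelihood test, Benjamini-Hochberg adjustment over 15687 genes), after a test on simulated data. The paper's criteria were used. Intervals cover 95%. Alternatives used DESeq2 1.42.0, limma 3.58.1, other scalings and filters, a batch block and each library left out. Replicate numbers were taken as batches, and the titles themselves name no batch. Deviations of same-numbered libraries correlated at -0.02, 0.16 and 0.06, and those of differently numbered ones at -0.15 to 0.10. Within-library ratios had 0.5 counts added. The exact intervals of Cxcl3 and Cxcl11 and the floors cover counting error only, and reads carry no molecular identifiers. The other intervals come from the edgeR fit and include the spread between these libraries.

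The genes and lists were chosen with earlier results of these data known. Named were the 10 genes, every listed or neighbouring gene past both criteria, Ppbp, Cxcl12 and Cxcr4. Zmynd15, Gm2673, Cxcr2, Cxcr3, Cxcr6, the proteases, Ifng, the listed ligands at 0 and all cell markers short of the criteria were named after their values were seen. Promoters of Cxcl5, Cxcl11 and Cxcl16 and all protein sequences were not analysed here.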

Additional observations from a re-analysis of the deposited data

How the results depend on the processing

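The count of higher CXC chemokine genes was 5 to 9 over all alternatives, against 8 in the reported result, and none was lower in any. It was 5 with a filter of at least 10 counts in every library, which leaves 8 genes and drops Cxcl3 and Cxcl11, and 5 when a log2 fold change above 2 was asked. With library totals alone it was 6. The median log2 fold change was 2.92 with library totals alone and 1.41 with the strict filter, against 3.33. Leaving out each library gave counts of 7 to 8 and medians of 3.24 to 3.44. Under the reported criteria, Pf4 and Cxcl16 were the tested genes whose calls changed. The log2 limit of 2 also removed Cxcl9, and an adjusted p alone added Cxcl5. Pf4 fell under the fold criterion at 0.60 with library totals alone and at 0.86 with upper-quartile scaling, and leaving out single libraries gave 0.97 to 1.05, under 1 without PBS 1, PBS 3 or LPS 3 (0.997, 0.971 and 0.988). Cxcl16 was at 0.80 with library totals alone. No CXC chemokine gene changed direction. With the replicate block, 8 genes were higher, the median was 3.32 and no call changed in the lists or neighbours either. The share of Cxcl16 and Pf4 in the PBS libraries was 86.3% instead of 89.5% with transcript length, an alternative added after seeing the data. That choice also changed the order of Cxcl1 and Cxcl2 in the LPS libraries. Depth limits Cxcl3, Cxcl11, Cxcl9, Cxcl5 and Cxcl14, whose lowest libraries held 1 to 37 counts.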
